A study of Mus musculus with 6 samples.

Results

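The genes described here are 10 genes of CD4 T cells, their regulatory subset and the immune checkpoints (*Cd4*, *Cd5*, *Foxp3*, *Cd28*, *Icos*, *Ctla4*, *Pdcd1*, *Lag3*, *Tigit* and *Cd274*), taken by symbol from a table of read counts with 48440 rows. All 10 had a row, and all 10 passed the filter on low counts. Dorsal root ganglia (DRGs), which hold the cell bodies of sensory neurons, were sequenced after microinjection of adeno-associated virus into the L3/4 DRGs on one side of male wild-type (WT) mice. The control libraries (n = 3) received AAV5-*Gfp*, which expresses green fluorescent protein, and the other libraries (n = 3) received AAV5-*V1* mixed with AAV5-*V2* (AAV5-*V1+V2*), which express the variants of the long noncoding RNA *NIS-lncRNA*. The ages of the mice and the number of mice behind each library are not given in the sources used here, and the deposited text gives both 4 and 5 weeks between microinjection and tissue. Both groups received a virus, and each had its own virus preparation, so that the preparation and the transcripts it carries cannot be told apart. The level of *NIS-lncRNA* itself was not analysed here. Below, the AAV5-*Gfp* libraries are called controls, and library values are given in the order of replicates 1, 2 and 3.

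CD4 T cells help other immune cells after their receptor has recognized a peptide on an MHC class II molecule. Their activation needs a further signal through costimulatory receptors such as CD28 and ICOS, and is held back by inhibitory receptors such as CTLA-4, PD-1, LAG-3 and TIGIT, the immune checkpoints. Regulatory T cells, which depend on the transcription factor FOXP3, restrain immune responses and carry several of these receptors at high levels. Resting ganglia hold few lymphocytes.

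Of the 10 genes, 9 rose with AAV5-*V1+V2* and 0 fell (edgeR's quasi-likelihood test, Benjamini-Hochberg adjusted p under 0.05 over 18593 genes), where 10.1% of all genes tested rose and 5.27% fell. *Tigit* did not pass. For all 10 genes every AAV5-*V1+V2* library lay above every AAV5-*Gfp* library in CPM (counts scaled by the normalized library size, as usual for RNA sequencing), against 23.4% of all genes tested. The 10 genes were chosen with earlier results of these data known, so their shares beside those of all genes are descriptions only. The log2 fold changes were uneven. For 6 genes (*Cd4*, *Cd5*, *Cd28*, *Icos*, *Ctla4* and *Pdcd1*) they were between 3.19 and 3.88, whereas for the other 4 they were between 1.13 and 1.88, and the median of the 10 was 3.22. The calls depended on the control libraries. Without control 2 or without control 3, 0 of the 10 genes passed in edgeR's quasi-likelihood test, although all 10 had an unadjusted p under 0.05. The whole table then held 12 and 15 higher genes. Without control 1, 6 passed. In bulk tissue, more cells of a type and more RNA per cell cannot be told apart.

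**Figure D1:**
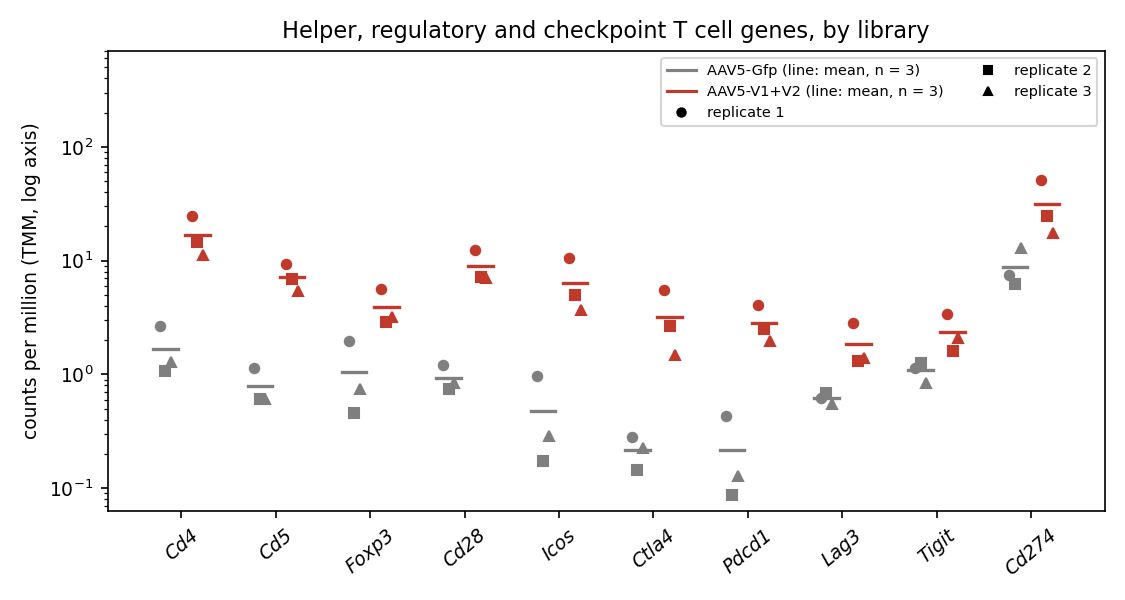
CPM (log axis) of each of the 10 genes in the 3 AAV5-*Gfp* libraries (grey) and the 3 AAV5-*V1+V2* libraries (red), with the symbol giving the replicate and the line the mean. The red symbols lie above the grey ones for every gene, and *V1+V2* library 1 is the highest for all 10.

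Total counts were between 32025612 and 34764282 per library, which limits the precision for genes of few reads. The counts of replicates differed by more than sampling noise, with a chi-square of at least 8.27 per degree of freedom. *V1+V2* library 1 was the highest of its group for 10 of the 10 genes, and control 1 was the highest of its group for 7. Summed over the 10 genes, the controls had 17.9, 11.5 and 18.3 CPM, and the *V1+V2* libraries had 130, 69.4 and 55.2 CPM. Neuronal markers were present in all libraries, at a summed level between 2240 CPM (*V1+V2* library 1) and 3840 CPM (control 1).

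*Cd4* encodes the coreceptor that binds MHC class II and marks helper and regulatory T cells, and in mice it is also found on some dendritic cells. It lies on chromosome 6 of GRCm38 (124864692 to 124888221, minus strand), and *Lag3* lies on the same chromosome and strand from 124904361 to 124911705. *Cd4* was counted at 86, 37 and 40 reads in the controls and at 815, 482 and 387 reads in the *V1+V2* libraries. The groups were far apart, since the lowest AAV5-*V1+V2* library (11.3 CPM) stood well above the highest AAV5-*Gfp* library (2.66 CPM). The mean was 1.67 ± 0.867 CPM (SD, n = 3) in controls and 16.8 ± 7.05 CPM (SD, n = 3) in the *V1+V2* libraries, a 10.1-fold rise (log2 fold change 3.33, SE 0.42, where SE is the standard error).

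*Cd5*, a scavenger receptor family member that dampens T cell receptor signals and is also carried by a subset of B cells, had 37, 21 and 19 reads in the controls. In the *V1+V2* libraries it had 307, 230 and 184 reads. This was a rise from 0.787 ± 0.311 to 7.20 ± 2.0 CPM (SD, n = 3), or 9.12-fold (log2 fold change 3.19, SE 0.32). Relative to its mean, *Cd5* varied less within each group than *Cd4*. In edgeR's quasi-likelihood test the adjusted p was 0.0139 for *Cd4* and 0.00910 for *Cd5*. Across the 15 alternative analyses it reached at most 0.0875 for both, in the fit without control 3, and both passed in 13. Besides that fit, each was over the threshold without control 2 (0.0815).

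*Cd28*, *Ctla4* and *Icos* form 1 gene cluster of related receptors on the plus strand of chromosome 1 of GRCm38, in that order (60716800 to 60773359, 60887000 to 60915832, and 60977927 to 61000320). CD28 gives the main costimulatory signal when it binds CD80 or CD86, CTLA-4 binds the same ligands and is inhibitory, and ICOS is the costimulatory receptor of activated and follicular helper T cells. *Cd28* had the smallest adjusted p of the 10 genes. Its reads numbered 39, 26 and 26 in the controls and 412, 238 and 243 with AAV5-*V1+V2*, so that *V1+V2* libraries 2 and 3 were alike and library 1 higher. It rose 9.56-fold (log2 fold change 3.26, SE 0.31, adjusted p = 0.00689, edgeR).

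*Icos* had 31 reads in control 1, but 6 and 9 in controls 2 and 3, against 347, 167 and 126 in the *V1+V2* libraries. The control libraries thus differed more among themselves than for *Cd28*. The rise was 13.5-fold (log2 fold change 3.76, SE 0.64, adjusted p = 0.0170, edgeR), and without control 1 the log2 fold change was 4.79. Neither *Cd28* nor *Icos* passed without control 2 (adjusted p = 0.0717 and 0.0818 by edgeR's test) or without control 3 (0.0875 and 0.0902), and both passed in the other 13 of the 15 alternatives.

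Among the inhibitory receptors, *Ctla4* had the largest fold of the 10 genes. It had few reads in the controls, with 9, 5 and 7, and had 180, 89 and 51 reads in the *V1+V2* libraries. The 3 AAV5-*V1+V2* libraries were all above the controls and spread widely, from 1.49 to 5.47 CPM. The log2 fold change was 3.88 (SE 0.57, adjusted p = 0.0144, edgeR), and 3.26 without *V1+V2* library 1. *Ctla4* passed in 12 of the 15 alternatives, and not without control 1 (adjusted p = 0.0508, edgeR), control 2 (0.0815) or control 3 (0.0875).

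*Pdcd1*, which encodes the checkpoint receptor PD-1, lies further along chromosome 1 (94038305 to 94052553, minus strand). With AAV5-*Gfp* it had 14, 3 and 4 reads, and with AAV5-*V1+V2* it had 134, 84 and 68. It rose 13.1-fold (log2 fold change 3.71, SE 0.53, adjusted p = 0.0144, edgeR). Control 1 held most of the control reads, and without it the log2 fold change was 4.70. As for *Cd4*, the call was lost only without control 2 (adjusted p = 0.0815, edgeR) and without control 3 (0.0875), of the 15 alternatives.

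*Lag3* and *Tigit* had smaller folds than these receptors. LAG-3 is a relative of CD4 that binds MHC class II, and TIGIT competes for the ligands PVR and NECTIN2, and both are also found on natural killer (NK) cells. *Lag3* had 20, 24 and 17 reads in the controls, and 93, 44 and 48 in the *V1+V2* libraries. The control libraries were close to each other, with 0.619 ± 0.0739 CPM (SD, n = 3), and control 1 did not stand out as for *Icos* and *Pdcd1*. *Lag3* rose 2.97-fold (log2 fold change 1.57, SE 0.35, adjusted p = 0.0296, edgeR), and 12 of the 15 alternatives gave the same call. It was lost without control 1 (0.0863), control 2 (0.0962) or control 3 (0.119), all adjusted p-values of edgeR's test.

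*Tigit* (chromosome 16 of GRCm38, 43648867 to 43664146, minus strand) was the gene that did not pass. Its reads numbered 37, 44 and 26 in the controls, and 112, 54 and 72 in the *V1+V2* libraries. The groups did not overlap, but *V1+V2* library 2 (1.62 CPM) was close to control 2 (1.27 CPM). The log2 fold change was 1.13 (SE 0.32, adjusted p = 0.0522, edgeR). Of the 15 alternatives 4 put it under the threshold, namely total counts only (adjusted p = 0.0462 in edgeR), no filter (0.0393 in edgeR), DESeq2 (0.0205) and a replicate block in edgeR (0.0456), and over all 15 the adjusted p went up to 0.168.

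**Figure D2:**
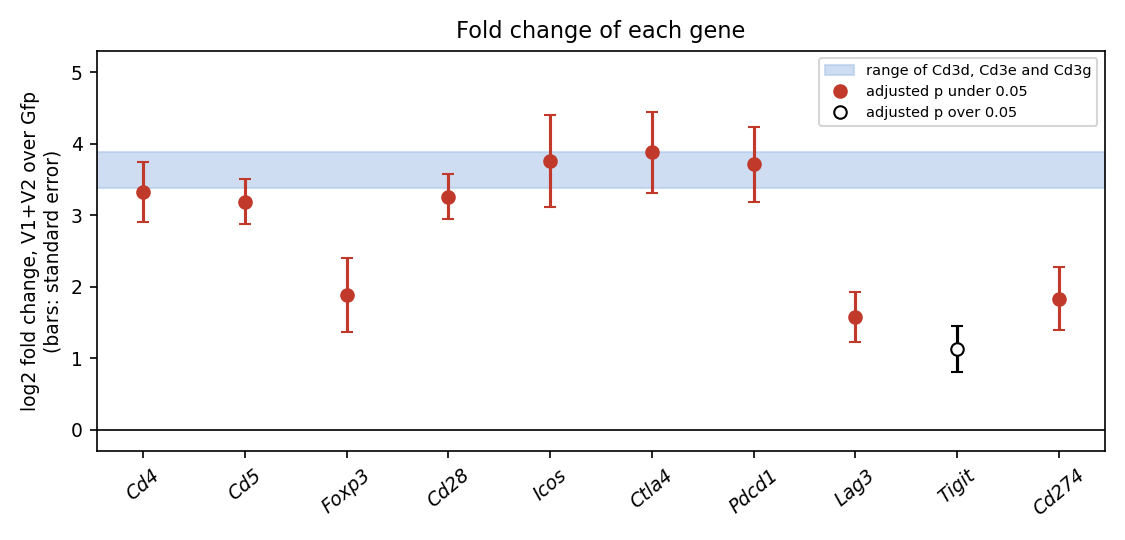
Log2 fold change of each of the 10 genes between AAV5-*V1+V2* and AAV5-*Gfp*, with its standard error, filled where the adjusted p was under 0.05; the band is the range of the CD3 chains *Cd3d*, *Cd3e* and *Cd3g*. The band runs from 3.38 to 3.88. *Cd4* (3.33), *Cd28* (3.26) and *Cd5* (3.19) lie just below it, and *Foxp3*, *Lag3*, *Tigit* and *Cd274*, between 1.13 and 1.88, further below.

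*Foxp3*, the factor that defines regulatory T cells, had the largest adjusted p of the 9 genes that passed. It had 64, 16 and 23 reads in the controls, and 184, 97 and 109 in the *V1+V2* libraries. Control 1 (1.98 CPM) was nearer to *V1+V2* library 2 (2.91 CPM) than to the other controls (0.462 and 0.737 CPM). The rise was 3.67-fold (log2 fold change 1.88, SE 0.52, adjusted p = 0.0494, edgeR), and without control 1 the log2 fold change was 2.70. *Foxp3* passed in 9 of the 15 alternatives, and over all 15 its adjusted p lay between 0.00276 (DESeq2) and 0.17 (edgeR without control 3). In edgeR's test *Foxp3* was also over the threshold without control 2 (adjusted p = 0.130) and without *V1+V2* library 1 (0.0882) or library 2 (0.0783). The same held with edgeR's scaling by relative log expression (RLE, adjusted p = 0.0501) and with robust empirical Bayes (0.0520).

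The *Foxp3* gene (chromosome X of GRCm38, 7573644 to 7595245, plus strand) shares exon sequence with its neighbours in GENCODE M21. Its exons have 590 bases in common with *Ccdc22*, 373 with *Gm36995* and 266 with *Ppp1r3f*, all on the opposite strand, and 853 with *Flicr*, annotated on the same strand. The libraries keep strand, but whether strand was used in counting is not given in the sources used here, so that reads in these bases are uncertain. None of the 3 neighbours that could be tested passed. *Ccdc22* had 407, 462 and 415 reads in the controls and 416, 413 and 497 with AAV5-*V1+V2* (log2 fold change 0.01, SE 0.10), *Ppp1r3f* had a log2 fold change of 0.15 (SE 0.17), and *Gm36995* of -0.15 (SE 0.32). Their part in the *Foxp3* counts was not tested.

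*Cd274* encodes PD-L1, the ligand of PD-1, which is induced by interferon-gamma and is made by myeloid cells, endothelium and many other cells besides T cells. It was the most abundant of the 10 genes in both groups, with 8.84 ± 3.53 CPM (SD, n = 3) in controls and 31.3 ± 17.9 CPM (SD, n = 3) in the *V1+V2* libraries. Its reads numbered 241, 215 and 401 in the controls, and 1694, 824 and 604 in the *V1+V2* libraries. Here library 3 was the highest control, at 12.8 CPM, and the lowest AAV5-*V1+V2* library was at 17.6 CPM. *Cd274* (chromosome 19 of GRCm38, 29367455 to 29388095, plus strand) rose 3.54-fold (log2 fold change 1.83, SE 0.44, adjusted p = 0.0355, edgeR), and 511 bases of its exons are shared with an antisense gene that was not analysed here. The call held in 10 of the 15 alternatives. It was lost in limma-voom (adjusted p = 0.0516) and, in edgeR's test, without control 1 (0.108), control 2 (0.120) or control 3 (0.0902), or without *V1+V2* library 2 (0.0620).

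**Figure D3:**
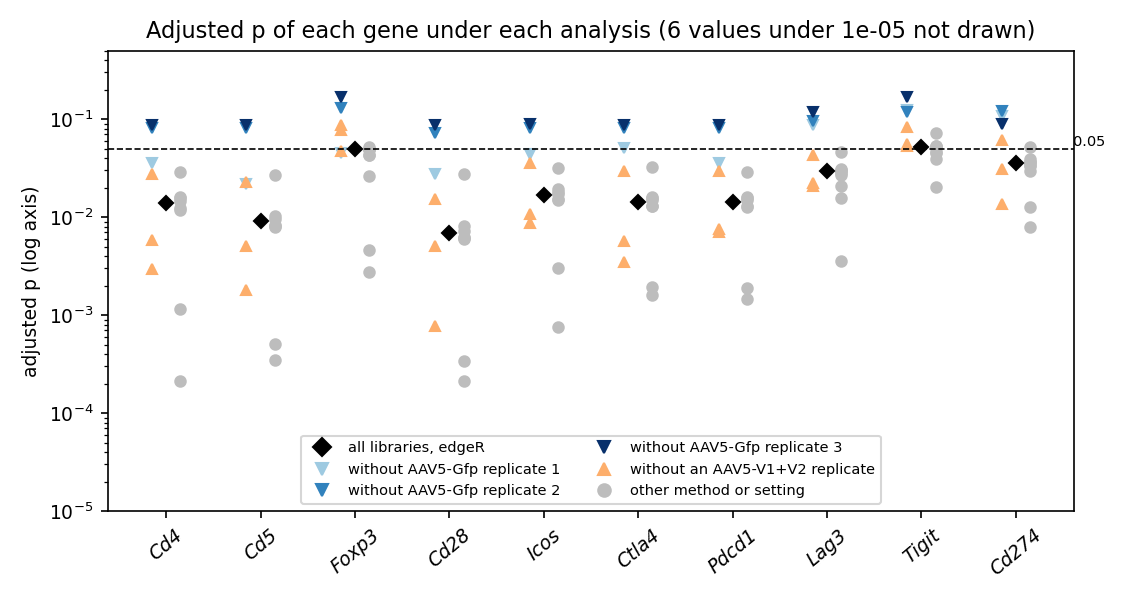
Adjusted p (log axis) of each of the 10 genes with all libraries (black diamonds), in the 6 fits that each left out a library (triangles) and under 9 other methods or settings (grey), with the threshold of 0.05 dashed; 6 values of DESeq2 under 1e-05 are not drawn. All 10 genes lie above the line without control 2 and without control 3.

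Levels of different genes were compared as CPM per kilobase of the longest annotated transcript. With AAV5-*Gfp* the order was led by *Cd274* (2.44 ± 0.967 CPM per kilobase, SD, n = 3), then *Tigit* (1.18 ± 0.246) and *Cd4* (0.537 ± 0.278), and the ranges of these 3 genes did not overlap. *Lag3*, *Foxp3*, *Cd5*, *Cd28*, *Icos*, *Pdcd1* and *Ctla4* followed, each overlapping the next, down to 0.112 ± 0.0351 for *Ctla4*. The order changed with AAV5-*V1+V2*, although there the range of every gene over the libraries overlapped that of the next. These ranges include *V1+V2* library 1, the highest for all 10 genes, and the order within each library was not compared. *Cd274* (8.64 ± 4.93 CPM per kilobase, SD, n = 3) again came first and *Cd4* (5.43 ± 2.27) second, then *Tigit* at 2.58 ± 1.00, and *Foxp3* (1.02 ± 0.385) and *Lag3* (0.925 ± 0.425) came last. With all exons in place of the longest transcript, *Lag3* stood above *Foxp3* there, so their order depends on the length used.

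T cells carry the CD3 chains encoded by *Cd3d*, *Cd3e* and *Cd3g*, so the reads of each gene were also set against the summed reads of these 3 genes in the same library, a ratio that does not depend on library size. The CD3 chains together had 66, 21 and 16 reads in the controls, and 724, 351 and 306 in the *V1+V2* libraries. Their own folds also depended on control 1, without which the log2 fold change of *Cd3g* was 5.43 (3.74 with all libraries) and that of *Cd3e* 4.52 (3.88), and without *V1+V2* library 1 that of *Cd3e* was 3.32. The ratios of *Icos*, *Ctla4* and *Pdcd1* had similar means in both groups, less than 1 SD apart. *Pdcd1* had 20.2 ± 5.43 reads per 100 CD3 reads (SD, n = 3) in the controls and 21.6 ± 2.77 with AAV5-*V1+V2*, *Icos* had 43.9 ± 14.1 and 45.6 ± 3.80, and *Ctla4* had 27.1 ± 15.3 and 22.3 ± 4.88. Ratios of *Cd4* (185 ± 60.4 and 125 ± 12.4), *Cd5* (91.6 ± 32.2 and 56.0 ± 12.1) and *Cd28* (115 ± 52.2 and 68.0 ± 11.3) had lower means with AAV5-*V1+V2* and overlapped between the groups.

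For *Foxp3*, *Lag3*, *Tigit* and *Cd274*, on the other hand, every AAV5-*V1+V2* library had a lower ratio to CD3 than every AAV5-*Gfp* library. The CD3 reads themselves were at most 66 in the controls and at least 306 in the *V1+V2* libraries. A gene that rose clearly less, or did not change, therefore also gives a lower ratio. Over all genes tested the median log2 fold change was 0.00, so many other genes would be apart in this way too. How many of all genes tested would be lower in this way was not counted, so the separation is not shown to be particular to these 4 genes. *Foxp3* had 97.0, 76.2 and 144 reads per 100 CD3 reads in the controls, and 25.4, 27.6 and 35.6 in the *V1+V2* libraries. *Lag3* had 30.3, 114 and 106 against 12.8, 12.5 and 15.7, so control 1, the control with the most CD3 reads, was also the nearest to the other group. The same library was the nearest for *Tigit* (56.1, 210 and 162 against 15.5, 15.4 and 23.5) and for *Cd274* (365, 1020 and 2510 against 234, 235 and 197). In an exact two-sided permutation test each of these 4 ratios had p = 0.1 (adjusted p = 0.25 over the 10 ratios). A p of 0.1 is the smallest that 3 libraries against 3 allow, so no ratio could have passed, whatever its values. The test therefore cannot decide whether these ratios differ between the groups. Relative to *Cd4* itself, *Foxp3* had 74.4, 43.2 and 57.5 reads per 100 *Cd4* reads in the controls and 22.6, 20.1 and 28.2 with AAV5-*V1+V2*. Reads in the exon bases that *Foxp3* shares with its neighbours are uncertain, and their part in both *Foxp3* ratios was not tested. The control ratios rest on as few as 16 CD3 reads.

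**Figure D4:**
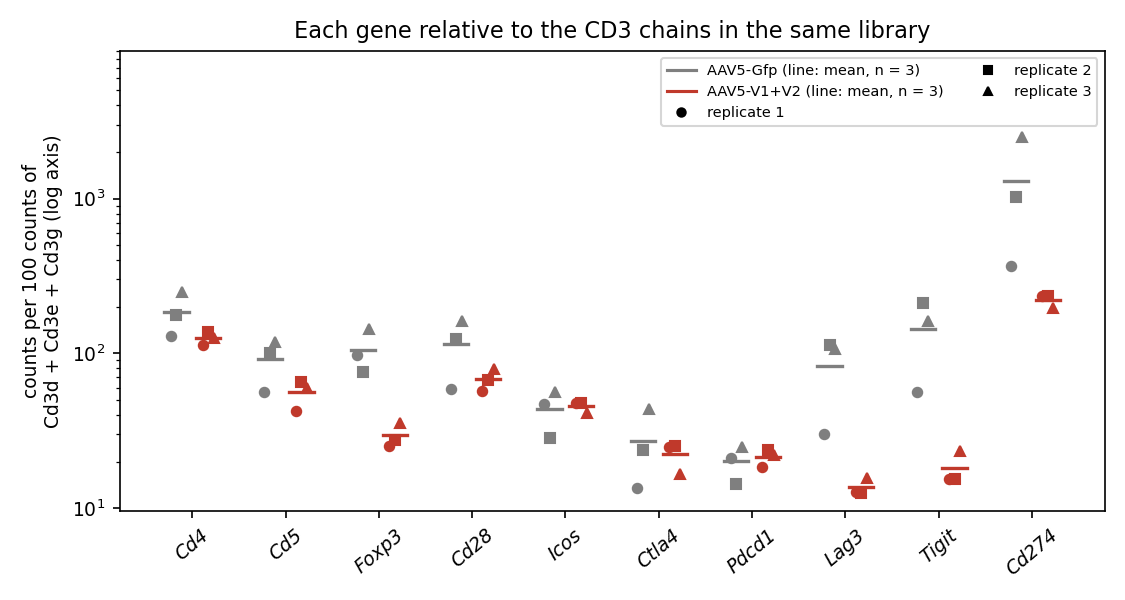
Reads of each of the 10 genes per 100 reads of *Cd3d*, *Cd3e* and *Cd3g* together in the same library (log axis), with AAV5-*Gfp* in grey and AAV5-*V1+V2* in red and lines for the means. The groups are apart for *Foxp3*, *Lag3*, *Tigit* and *Cd274* and overlap for the other 6 genes.

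Promoter sequences were shown for *Ctla4* and *Foxp3*, because *Ctla4* had the largest fold of the 10 genes and *Foxp3* was the transcription factor among them. RefSeq (GRCm38.p6) gave promoter windows, 250 bases before to 50 after a start site, for 6 of the 10 genes, namely *Cd274*, *Cd5*, *Ctla4*, *Foxp3*, *Pdcd1* and *Tigit*. Capitals mark matches to the letters searched on both strands, which were TATAAA (bound by the TATA-binding protein), GGAAAA (core of NFAT sites), TGTGGT (RUNX) and TTCNNNGAA (GAS, the gamma-activated site). These occurred in 13.6%, 23.3%, 16.8% and 8.29% of 32817 promoter windows of the same length. The letters were chosen with these windows in view, and a motif of interferon regulatory factors, tried as well, matched none of them and is not shown.
*Ctla4*, chr1:60908775-60909074, plus strand: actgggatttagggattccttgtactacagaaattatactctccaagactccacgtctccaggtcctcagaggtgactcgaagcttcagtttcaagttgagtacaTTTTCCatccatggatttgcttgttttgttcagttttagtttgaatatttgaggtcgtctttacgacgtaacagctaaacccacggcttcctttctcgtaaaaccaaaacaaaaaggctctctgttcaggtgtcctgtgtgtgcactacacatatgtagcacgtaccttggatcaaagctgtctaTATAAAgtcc
*Foxp3*, chrX:7579426-7579725, plus strand: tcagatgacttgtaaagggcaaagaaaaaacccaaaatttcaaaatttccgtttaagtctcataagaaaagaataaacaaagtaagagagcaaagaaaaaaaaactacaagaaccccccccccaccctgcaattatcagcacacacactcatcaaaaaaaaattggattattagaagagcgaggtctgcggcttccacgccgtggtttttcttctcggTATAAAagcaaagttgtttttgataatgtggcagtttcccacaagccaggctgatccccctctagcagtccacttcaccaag

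Counted from 0 at the first transcribed base, the TATAAA letters stood at -32 in *Foxp3* and at 40, after the start, in *Ctla4*, whose window also held the NFAT letters on the minus strand at -145. A second *Foxp3* window, which starts at 7580233, held the NFAT letters on the minus strand at -141 and the overlapping GAS letters at -139. In the *Tigit* window the RUNX letters lay at -140 and the NFAT letters at -14, both on the minus strand. None of these letters occurred in the windows of *Cd274*, *Cd5* and *Pdcd1*. These matches are descriptions of the letters, not of binding.

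Genes of the same pathways were counted from lists compiled by hand with earlier results of these data known, so these counts are descriptions too. Of 64 related genes tested, 46 rose, 1 fell and 17 did not pass, with a median log2 fold change of 1.96, against 10.1% of all genes higher and a median of 0.00 over all genes. Without control 1 the higher genes were 22, and without control 2 or control 3 they were 0 in edgeR's test. Of the T cell receptor complex and its signalling, 12 of 12 genes rose. *Trbc1*, a constant region of the receptor's beta chain, went from 0.173 ± 0.065 to 2.80 ± 0.714 CPM (SD, n = 3), *Cd3e* from 0.357 ± 0.230 to 5.31 ± 2.96, and *Cd247*, the zeta chain, from 4.61 ± 1.75 to 31.1 ± 13. The smallest rise of this list was that of *Lcp2*, an adaptor used by other blood cells too (log2 fold change 1.08, SE 0.27), which did not pass in limma-voom (adjusted p = 0.0514) or, in edgeR, without control 1 (0.0842) or *V1+V2* library 2 (0.0664).

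Among lineage factors and cytokines of helper T cells, 8 of 14 genes tested rose. *Cxcr5*, the homing receptor of follicular helper T cells and of B cells, rose 10.5-fold, *Cxcr3*, a receptor of T helper 1 cells, 11.4-fold, and *Il21*, a cytokine of follicular helper T cells, 8.24-fold. Without control 1 the log2 fold change of *Cxcr3* was 4.14 (3.51 with all libraries), *Il21* did not pass (adjusted p = 0.0519, edgeR), and 4 genes of this list rose. *Maf* had the largest adjusted p (0.902, edgeR's quasi-likelihood test, with 64.8 ± 9.02 and 65.7 ± 0.877 CPM, SD, n = 3). The gene that fell was *Il4*, singled out after its values were seen, with 968, 1020 and 970 reads in the controls and 600, 785 and 852 in the *V1+V2* libraries. Its adjusted p in edgeR was 0.0469, and the call held in 10 of the 15 alternatives. In edgeR the adjusted p was 0.117, 0.124 and 0.150 without control 1, 2 and 3, 0.0842 without *V1+V2* library 2, and 0.0581 with total counts only. Its level was 30.0, 29.4 and 31.1 CPM in controls that held few CD3 reads, and the counting program and its use of strand are not known here, so that it is uncertain whether these reads are *Il4* mRNA of T cells, which was not tested. Too few reads were counted to test 5 genes of this list. *Ifng* had 0, 0 and 3 reads in the controls and 25, 9 and 15 with AAV5-*V1+V2*, and *Il17a* had 1 read in 1 library.

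Of the genes that regulatory T cells carry beside *Foxp3*, 5 of 10 tested rose, and the median log2 fold change was 0.66. *Il2ra*, the high-affinity interleukin-2 receptor chain CD25, rose 4.09-fold, *Tnfrsf18*, which encodes GITR, 10.1-fold, and the cytokine *Tgfb1* 2.90-fold. None of this list passed when any 1 of the controls was left out. *Ikzf4*, a partner of FOXP3, had 0.966 ± 0.345 CPM in controls and 0.997 ± 0.173 CPM with AAV5-*V1+V2* (SD, n = 3, adjusted p = 0.939, edgeR).

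Of the ligands of the 10 genes' receptors, 6 of 8 tested rose. *Cd80*, a ligand of CD28 and CTLA-4, rose 5.26-fold, and the MHC class II genes *H2-Aa* and *H2-Ab1*, whose products bind CD4 and LAG-3, rose 7.95-fold and 6.88-fold. The TIGIT ligands *Pvr* (log2 fold change 0.11, SE 0.14) and *Nectin2* (0.10, SE 0.11) did not pass. Their receptor *Tigit* did not pass either, but with a larger log2 fold change (1.13, SE 0.32, adjusted p = 0.0522, edgeR) and groups that did not overlap. *Pdcd1lg2*, the other ligand of PD-1, had 8, 6 and 8 reads in the controls and 274, 48 and 57 with AAV5-*V1+V2*, so library 1 was far above the others of its group. Without that library its log2 fold change was 2.77 (4.06 with all libraries). *Nectin2* and *Pdcd1lg2* were singled out after their values were seen.

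Other costimulatory and inhibitory receptors of T cells rose in 10 of 12 cases, among them *Btla* (8.34-fold), which B cells carry as well, *Cd226* (3.51-fold), which shares its ligands with TIGIT, and *Cd2* (10.3-fold). Without control 1, 5 genes of this list rose, and the log2 fold change of *Cd2* was 3.99 (3.36 with all libraries). *Tox*, which is also expressed in other tissues, had 88.7 ± 2.56 and 102 ± 8.27 CPM (SD, n = 3, adjusted p = 0.111, edgeR). Of 8 genes of the interferon-gamma response, 5 rose, including *Ciita* (6.59-fold), the regulator of MHC class II genes, and *Cxcl9* (17.4-fold). *Cxcl9* had 2919 reads in *V1+V2* library 1 against 734 and 526 in the others, without that library its log2 fold change was 2.95 (4.12 with all libraries), and it did not pass in limma-voom (adjusted p = 0.0597). None of the interferon-gamma list passed when any 1 of the controls was left out, and 3 rose without *V1+V2* library 2. *Cxcl10* did not pass (log2 fold change 1.74, SE 0.67, adjusted p = 0.114, edgeR).

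**Figure D5:**
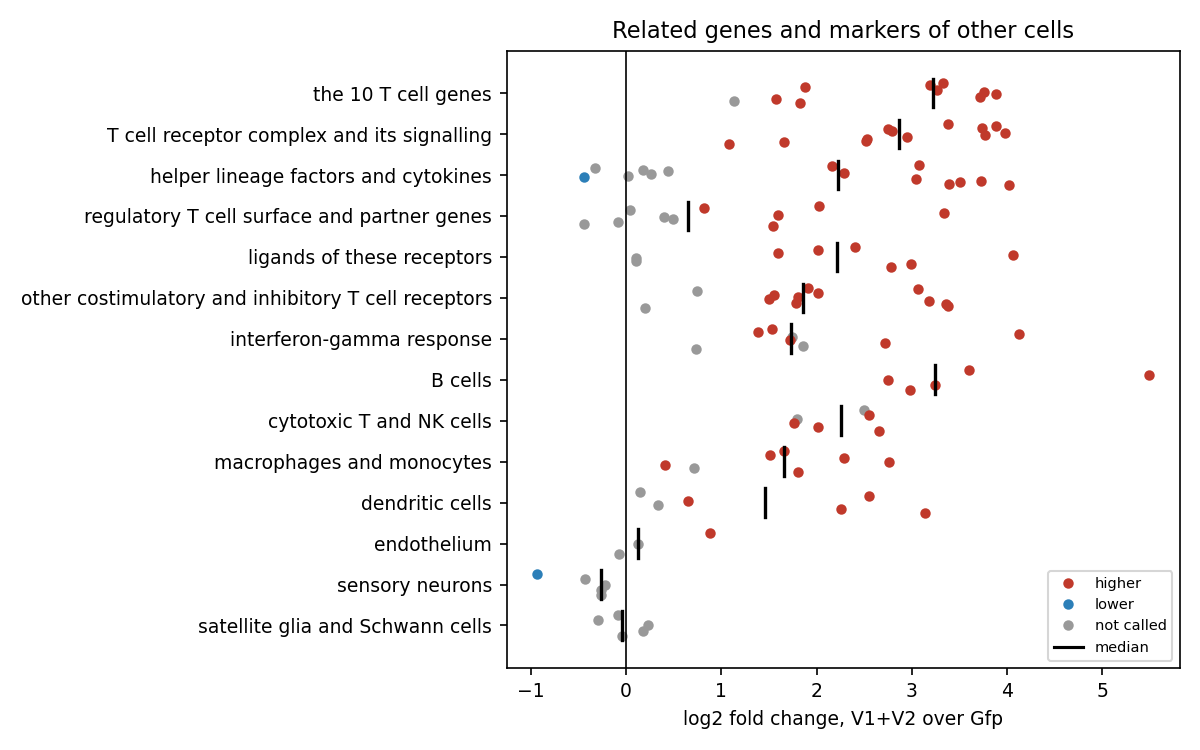
Log2 fold change of every tested gene of each list (points, coloured by the call) with the median of the list (line). The medians of the immune lists lie above 0, from 0.66 to 3.24, and those of neurons (-0.26) and of satellite glia and Schwann cells (-0.04) lie below it.

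Several of the 10 genes are also expressed by other immune cells, whose markers moved with the groups. B cell markers rose in 5 of 5 cases, with a summed level between 9.58 and 15.2 CPM over the AAV5-*Gfp* libraries and between 73.6 and 175 CPM over the AAV5-*V1+V2* libraries, and *Ms4a1*, which encodes CD20, rose 45.0-fold. Macrophage and monocyte markers rose in 6 of 7 cases (165 to 232 CPM and 472 to 1370 CPM), with *Lyz2* 6.79-fold, *Adgre1* 3.16-fold and *Cd68* 4.87-fold higher and *Cx3cr1* not passing (adjusted p = 0.0525, edgeR). Dendritic cell markers rose in 4 of 6 cases (53.6 to 60.9 CPM and 84.0 to 123 CPM), with *Itgax* 8.79-fold, *Xcr1* 5.85-fold and *Siglech* 4.78-fold higher, while *Flt3* had a log2 fold change of 0.15 (SE 0.08). Cytotoxic T and NK cell markers rose in 4 of 6 cases tested (1.39 to 4.12 CPM and 8.59 to 18.1 CPM), *Prf1*, which encodes perforin, 4.03-fold. *Cd8a* (adjusted p = 0.0529) and *Klrb1c* (0.0731) did not pass in edgeR's test, and *Gzmb*, at 0, 0 and 2 reads in the controls, was not tested. *Lyz2* had 32528 reads in *V1+V2* library 1 against 13912 and 9317 in the others, and without that library its log2 fold change was 2.07 (2.76 with all libraries). Without control 2 or control 3 no gene of these lists passed in edgeR's test, and without control 1 no macrophage or monocyte marker did. The cytotoxic T and NK cell markers that rose numbered 2 without *V1+V2* library 1 and 2 without library 2. The part of these cells in the levels of the 10 genes was not tested.

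Markers of resident cells moved less. Of 3 endothelial markers *Pecam1* rose 1.84-fold, a gene that leukocytes carry as well, while *Cdh5* and *Kdr* did not pass (log2 fold changes 0.13 and -0.07). Of 5 neuronal markers 1 fell, *Rbfox3*, with a log2 fold change of -0.93 (SE 0.19), and the summed level was 2240 CPM in *V1+V2* library 1 against 3250 and 3180 CPM in libraries 2 and 3. The *Rbfox3* and *Pecam1* calls, too, were lost when any 1 of the controls was left out, and that of *Rbfox3* also without *V1+V2* library 2 (adjusted p = 0.0574, edgeR). The 5 markers of satellite glia and Schwann cells did not pass, with log2 fold changes between -0.29 and 0.23.

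The genes most like *Cd4*, *Foxp3* and *Cd274* were taken by Pearson's r of log2 CPM over the 6 libraries among 16066 genes, as a description. For *Cd4* these were *Il7r*, *Cxcr3* and *Lamc1* (r of 0.9996, 0.9996 and 0.9993), for *Foxp3* they were *Cd8a*, *Klrc1* and *Cd8b1* (0.9988, 0.9977 and 0.993), and for *Cd274* they were *Fgd6*, *Stx4a* and *Rsrc2* (0.999, 0.9986 and 0.9974). Since the libraries fall into 2 groups, a high r is common. An r above 0.95 was found for 884, 124 and 587 genes. *Foxp3* shared with *Cd8a* a library, control 1, that was far above the other controls, at 31 reads of *Cd8a* against 3 and 6.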

How the data were processed

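RNA of DRGs from male mice was sequenced in 3 control libraries and 3 *V1+V2* libraries. The table the authors deposited holds whole-number counts by gene symbol and library, not normalized. Per the labels the libraries were stranded total RNA, and the submitters' processing notes name the build GRCm38 (mm10). The aligner, the counting program, its annotation and its use of strand are not given in the sources used here. Nothing states that replicates are separate mice, so p-values measure the spread between these libraries.

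Rows that passed filterByExpr were scaled by TMM factors and fitted with edgeR 4.0.16 (glmQLFit, glmQLFTest; R 4.3.3), with no covariate, over 18593 of 48440 rows. The standard error (SE) is the log2 fold change over the root of F. The calculation was tested on simulated counts with known changes, drawn independently for each gene and library. That test does not cover shifts that many genes share in a library, and its outcome is not reported here. The members and lists were chosen with earlier results of these data known. Besides all 10 genes, the rule for named genes took from each list the 3 genes with the smallest adjusted p and the 1 with the largest. A gene that this rule took is not reported here. *Cd244a* was found under its synonym *Cd244*. Coordinates, lengths and overlaps are from GENCODE M21 (GRCm38). The 15 alternatives covered normalization, filters, DESeq2 1.42.0, limma-voom (limma 3.58.1), robust empirical Bayes, a replicate block and leaving out each library.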

Additional observations from a re-analysis of the deposited data

How the results depend on the processing

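All 10 genes kept their direction in all 15 alternatives. Of the 10, between 8 and 10 were called in the 9 alternatives that kept all libraries, and between 0 and 9 in the 6 fits with a single library removed (leave-one-out), against 9 with all libraries. In those 6 fits related genes called higher ranged from 0 to 50 (46 with all libraries), all genes called higher from 12 to 2474 (1872), and all genes called lower from 0 to 1446 (980). The counts of 0 come from the fits without control 2 and without control 3, where edgeR's test gave 2029 and 1815 lower genes at an unadjusted p under 0.05, and the cause was not tested. DESeq2 called 1606 genes lower. With the replicate block edgeR called 10 of the 10 genes, adding *Tigit* (adjusted p = 0.0456), 2118 genes higher and 1341 lower. The replicate numbers were not taken as pairs, since the labels give them no stated meaning. The deviations of same-numbered libraries correlated at 0.036, 0.066 and 0.107, and those of other pairs between -0.104 and 0.043. *V1+V2* libraries 2 and 3 correlated best with the control of the same number, and library 1 with control 2 (0.043). In edgeR each of the 10 genes had a smaller adjusted p with the block, for *Cd4* 0.000215 against 0.0139 without it. With all exons of a gene in place of the longest transcript, the level of *Cd28* with AAV5-*Gfp* was 0.152 CPM per kilobase (from 0.214) and that of *Cd5* with AAV5-*V1+V2* was 1.46 (from 2.41). With few reads in the controls, from 3 to 14 for *Pdcd1* and from 5 to 9 for *Ctla4*, depth limits how well their folds are known. In groups of 3 libraries no test for outlying libraries was made.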
